A study of Mus musculus with 42 samples.

Results

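Ribosome-bound RNA of mature oligodendrocytes was compared between spinal cord and subcortical white matter of the mouse. The comparison used all genes of 11 libraries, 5 from spinal cord (replicates 3, 4, 5, 7 and 8) and 6 from white matter (replicates 2, 3, 5, 6, 7 and 8), out of 24 such libraries and 42 libraries in the whole series. The RNA was obtained by translating ribosome affinity purification (TRAP), in which tagged ribosomes of 1 cell type are pulled down from a tissue lysate together with the RNA they carry. Both groups carried the same purification and received no treatment in the labels. The labels name neither the line or promoter that drives the ribosome tag, nor age, nor whether each library is its own animal. The p-values therefore reflect only how far libraries of a group differ, and that spread may be technical. Cortex (7 libraries) and cerebellum (6 libraries) of the same table are given beside the results where they show where a level lies.

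Oligodendrocytes wrap axons of the central nervous system with myelin, a stack of lipid-rich membrane held together by proteins such as myelin basic protein. Mature oligodendrocytes are not uniform: single-cell studies have described a Klk6-positive population, called MOL2, and a Ptgds-positive population, called MOL5 and MOL6. Cells of the spinal cord and the forebrain also arise from different parts of the neural tube, where Hox genes mark the hindbrain and cord and other factors mark the forebrain. The question asked of the 2 regions was which of these differences the ribosome-bound RNA carries.

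The authors deposited RPKM values, read counts scaled by gene length and library size. Their step sizes gave the depth of each library, which spanned 3.26 to 13.0 M reads in spinal cord and 7.36 to 16.5 M in white matter. A read is here the largest step that makes all values of a gene whole, so the true depth could be a whole multiple of these totals, and bounds stated in reads would shift with it. Fold changes are spinal cord over white matter on the scale of log2(RPKM + 0.5), with a standard error after ±, and RPKM are means ± SD with n = 5 spinal cord and n = 6 white matter libraries. A gene is called when its limma adjusted p over all 12656 genes tested is under 0.05. The defining oligodendrocyte markers (Mbp, Mog, Mag, Mobp, Cnp, Cldn11 and Opalin) were at 77.5 RPKM or above in all 11 libraries. RNA of neurons was abundant beside them: Snap25, a synaptic vesicle fusion protein, stood at 4633 ± 855 RPKM in spinal cord and 4292 ± 1501 in white matter. In bulk RNA of this kind, fewer cells of a type and less RNA per cell cannot be told apart. The spinal cord libraries resembled each other less than the white matter libraries did. Over the genes tested, the mean correlation of a library's log2 values with those of the others of its group was 0.764 to 0.824 in spinal cord, lowest for replicates 4 and 7, and 0.84 to 0.891 in white matter. Replicate 7 was also the shallowest.

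The regions differed in 2200 genes (17.4% of those tested), of which 791 (6.25%) were higher and 1409 (11.1%) lower in spinal cord. In 481 genes (3.8%) every spinal cord library lay above every white matter library, and in 847 (6.69%) every one lay below. Without white matter replicates 7 and 8 the counts were 479 higher and 803 lower. At least 4-fold differences were called for 261 higher and 827 lower genes. The lean towards lower calls depended on the scaling. The median log2 fold change of all genes tested was -0.28 with the deposited scaling, -0.11 after median-of-ratios scaling and -0.00 after quantile normalization, and the split of calls became 1070 higher and 1100 lower, and 923 higher and 1085 lower. List medians below are therefore to be read against -0.28, and list counts against the shares of all genes tested given above.

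**Figure D1:**
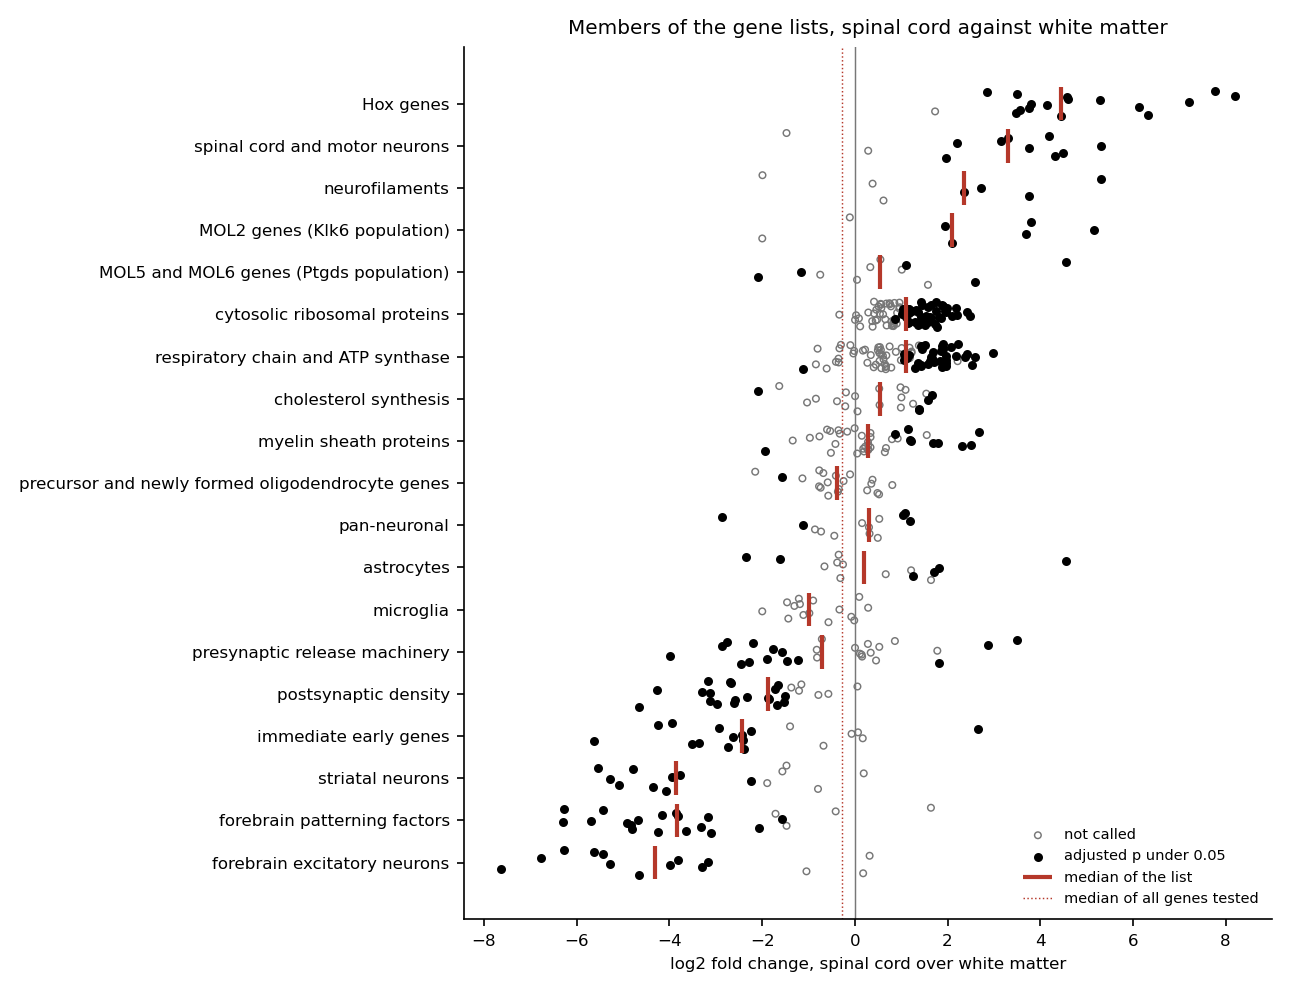
Log2 fold change of spinal cord over white matter (horizontal axis) for the tested members of 19 gene lists (rows, 1 point a gene, filled where the limma adjusted p is under 0.05), with each list's median as a red bar and the median of all genes tested, -0.28, as a dotted line. Hox genes sit furthest to the right, with a median of 4.44, and genes of forebrain excitatory neurons furthest to the left, with a median of -4.32, while the myelin proteins lie around 0.

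Most of the tested genes of the MOL2 population rose in spinal cord. Of 8 listed genes, 7 were tested, 5 rose, none fell and 2 were not called, with a median log2 fold change of 2.09, where 6.25% of all genes tested rose. Klk6, a secreted serine protease of the kallikrein family and the gene that names this population, stood in spinal cord replicates 3, 4, 5, 7 and 8 at 320, 202, 166, 143 and 284 RPKM, and in white matter at 0.187 at the lowest, 6.94 at the median and 45.8 at the highest. The groups did not overlap, and Klk6 rose by 5.16 ± 0.73 (adjusted p = 0.000171). Hopx, a homeodomain-only cofactor that does not bind DNA, stood at 754, 491, 617, 887 and 1036 RPKM in spinal cord against 24.8 to 146 in white matter, again with no overlap, and rose by 3.69 ± 0.41 (adjusted p = 2.15e-05). Anxa5, a phosphatidylserine-binding annexin, rose by 2.09 ± 0.51, and Mgst3, a microsomal glutathione transferase, by 1.94 ± 0.35, both without overlap. Nkx2-9, a homeodomain factor, was uneven within the cord: 150, 1.66, 36.4, 3.48 and 168 RPKM, where the low values are those of replicates 4 and 7, against 0.201 to 2.67 in white matter. It rose by 3.79 ± 1.01 (adjusted p = 0.0163), a call that ended when white matter replicates 7 and 8 were left out (adjusted p = 0.060).

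Genes of the MOL5 and MOL6 population did not move together. Of 11 tested, 3 rose, 2 fell and 6 were not called, with a median of 0.55. Calls made up 45.5% of the list, against 17.4% of all genes tested. S100b, a calcium-binding protein made by oligodendrocytes and astrocytes, stood at 5429, 6577, 5500, 9688 and 5555 RPKM in the 5 spinal cord libraries and at 119, 296 and 438 RPKM at the lowest, median and highest in white matter, and rose by 4.56 ± 0.31 (adjusted p = 1.61e-07). Apod, a lipid-binding lipocalin, stood at 7801, 3625, 5667, 3873 and 8660 RPKM against 369 to 2686 and rose by 2.59 ± 0.41 (adjusted p = 0.000423). Ptgds, the prostaglandin D synthase that names the population, stood at 3163, 1748, 2659, 609 and 1972 RPKM against 616 to 3191, so that the ranges overlapped nearly in full, and its difference of 0.33 ± 0.43 was not called (adjusted p = 0.632). Grm3, a metabotropic glutamate receptor, went the other way, at 45.7, 11.1, 15.9, 6.51 and 27.2 RPKM against 38.9 to 115, and fell by 2.08 ± 0.47 on the log2 scale (adjusted p = 0.00634). The other 2 calls, a rise of Qdpr and a fall of Jph4, were weak: leaving out any 1 of 7 libraries ended the first (adjusted p 0.0523 to 0.0738 in those fits) and leaving out spinal cord replicate 3 ended the second (adjusted p = 0.0522).

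The regions upstream of S100b and Apod are shown because these are the most abundant subtype genes that rose. They are the 250 bases before the start in RefSeq on GRCm38.p6, for S100b chr10:76253586-76253835 on the plus strand and for Apod chr16:31314809-31315058 on the minus strand, and both lie outside the annotated genes. Capitals mark matches to ACAAAG, the core recognised by SOX factors such as the oligodendrocyte regulator Sox10.
S100b: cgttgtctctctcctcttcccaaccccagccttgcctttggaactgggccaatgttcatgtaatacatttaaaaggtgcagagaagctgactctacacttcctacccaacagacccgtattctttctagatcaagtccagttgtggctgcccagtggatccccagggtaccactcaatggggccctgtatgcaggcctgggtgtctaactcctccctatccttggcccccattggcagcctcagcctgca
Apod: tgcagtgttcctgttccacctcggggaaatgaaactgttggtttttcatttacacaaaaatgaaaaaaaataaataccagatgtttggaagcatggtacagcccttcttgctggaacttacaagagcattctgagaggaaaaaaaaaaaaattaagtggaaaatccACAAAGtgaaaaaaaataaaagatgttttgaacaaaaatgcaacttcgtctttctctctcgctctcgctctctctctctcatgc
The Apod stretch holds 1 match, at bases 167 to 172 on the strand shown, which begins 84 bases before the start. The S100b stretch holds none on either strand. Of 32536 such stretches of all genes 16.5% hold at least 1 match, so a match or its absence singles out neither gene. The S100b stretch was 53.6% G and C and the Apod stretch 36.4%, against a median of 52.4% over all stretches.

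Across the 4 regions the mean of Klk6, Hopx, Nkx2-9, Anxa5, S100b and Apod was highest in spinal cord and next highest in cerebellum. Klk6 averaged 223 ± 76.3 RPKM in spinal cord, 96.6 ± 53.6 in cerebellum, 11.7 ± 16.9 in white matter and 1.89 ± 0.956 in cortex. In a fit of all 24 libraries its difference between spinal cord and cerebellum, 1.39 ± 0.65, was not called (adjusted p = 0.117). Hopx averaged 757 RPKM in spinal cord, 235 in cerebellum, 68.4 in white matter and 40.3 in cortex, and spinal cord exceeded cerebellum by 1.65 ± 0.39 (adjusted p = 0.00276). For S100b the means were 6550, 1099, 294 and 174 RPKM in the same order, and spinal cord exceeded cerebellum by 2.59 ± 0.30 (adjusted p = 1.16e-06). Nkx2-9 did not differ detectably between spinal cord and cerebellum, at 71.9 ± 81.0 and 34.6 ± 15.7 RPKM (difference -0.31 ± 0.84, adjusted p = 0.819).

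**Figure D2:**
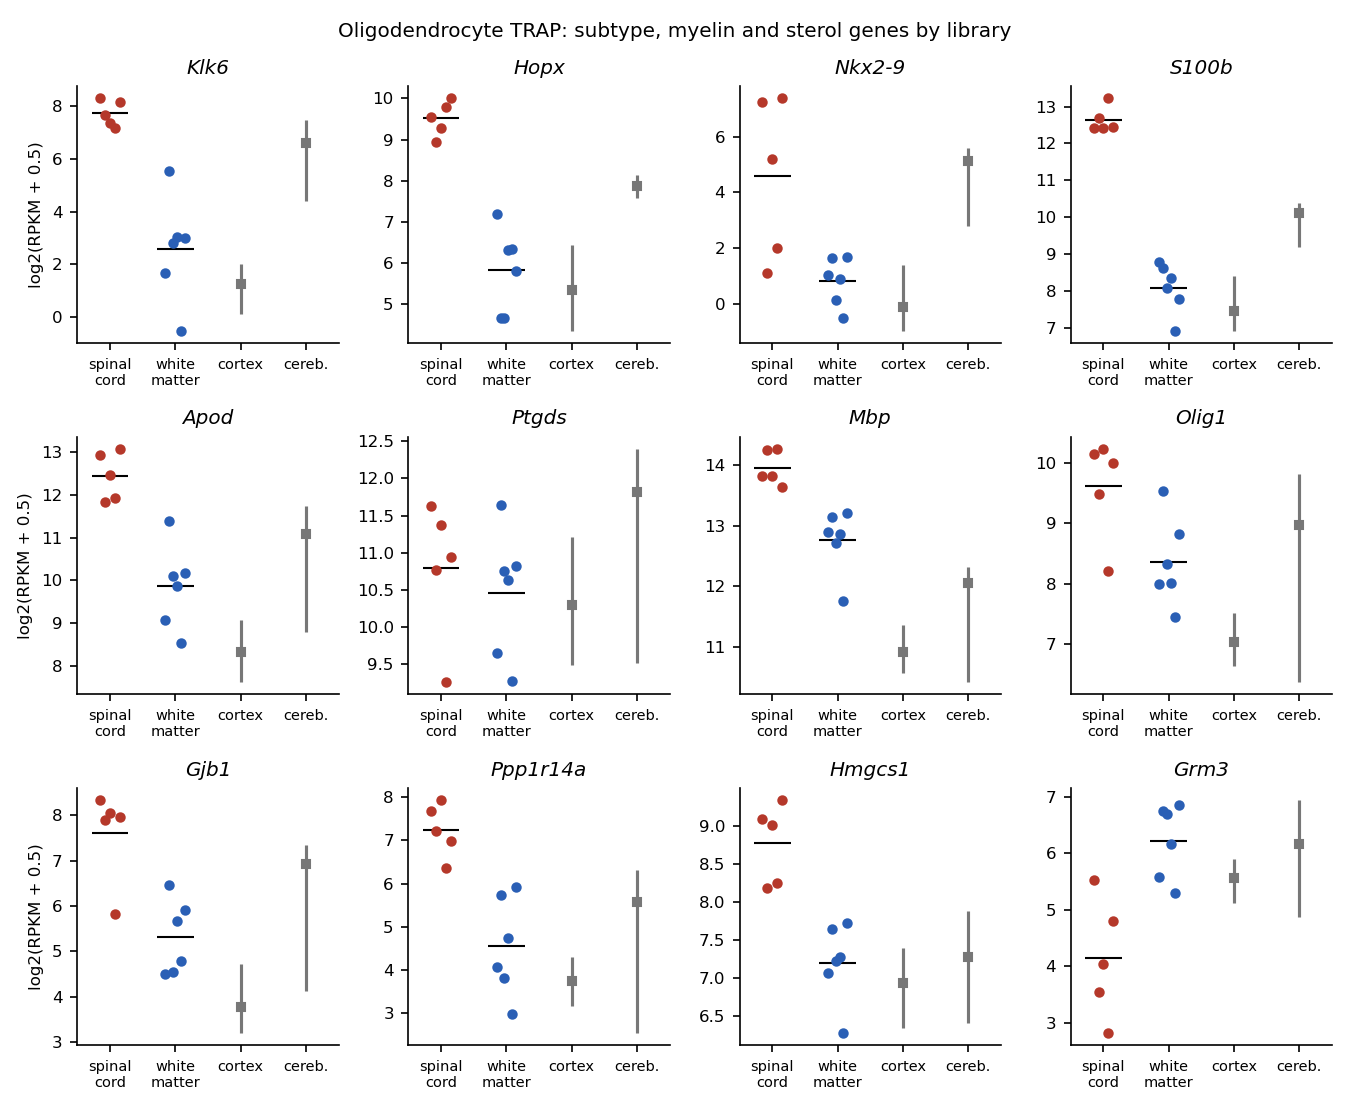
Level of 12 genes as log2(RPKM + 0.5), 1 panel a gene, with 1 point for each of 5 spinal cord (red) and 6 white matter (blue) libraries and a black line at the mean of the points; grey squares are the means of cortex (7 libraries) and cerebellum (6 libraries) with a bar from the lowest to the highest library. Klk6, Hopx, S100b, Apod, Mbp, Ppp1r14a and Hmgcs1 show no overlap between the red and blue points, while those of Ptgds and Olig1 overlap.

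The proteins of the myelin sheath rose only in part. Of 38 tested, 9 rose, 1 fell and 28 were not called, and the median was 0.29. Calls made up 26.3% of the list, against 17.4% of all genes tested. Mbp, which holds the inner faces of the membrane together, stood at 14471, 19520, 14524, 19844 and 12721 RPKM in spinal cord and at 3463, 7517 and 9468 RPKM at the lowest, median and highest in white matter. Every spinal cord library was above every white matter library, and Mbp rose by 1.20 ± 0.25 (adjusted p = 0.00393; 0.0997 after quantile normalization). Cnp, a phosphodiesterase of the myelin cytoplasm, stood at 6607, 2555, 5613, 1868 and 5507 RPKM against 1599 to 7911 and differed by 0.18 ± 0.40 (adjusted p = 0.793). Within the cord the genes parted: replicates 4 and 7 had the highest Mbp and the lowest Cnp. What sets these libraries apart was not tested.

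Larger rises among the sheath genes were in less abundant proteins. Gjb1, a gap junction protein that links the layers of myelin, stood at 324, 239, 263, 56.0 and 250 RPKM against 22.2 to 87.9 and rose by 2.30 ± 0.47 (adjusted p = 0.00305). The groups of Gjb1 overlapped through spinal cord replicate 7 alone. Ppp1r14a, an inhibitor of myosin phosphatase, rose by 2.68 ± 0.49 with no overlap, and Gsn, the actin-severing protein gelsolin, by 1.79 ± 0.41. Hapln2, a link protein at nodes of Ranvier, rose by 1.68 ± 0.42 (adjusted p = 0.0122, and 0.054 without white matter replicates 7 and 8). The rises of Mag, Tppp3 and Plekhb1 and the fall of Cd9 had adjusted p of 0.0489, 0.0443, 0.0346 and 0.0381, and each ended when any 1 of at least 7 libraries was left out. Mog, Mobp, Cldn11 and Opalin were not called (0.92 ± 0.44, 0.80 ± 0.38, 0.28 ± 0.58 and 0.15 ± 0.44). Without spinal cord replicates 4 and 7, Mog was called (1.40, adjusted p = 0.0431) and Cldn11 was at 1.07 and not called (adjusted p = 0.215). Mal, a membrane protein of compact myelin, had the opposite sign, -1.34 ± 0.49, with an adjusted p of 0.0695, and was called after quantile normalization (adjusted p = 0.0121). Without spinal cord replicates 4 and 7 it was at -0.47 (adjusted p = 0.456). Quantile normalization left 5 rises and 4 falls in the list and a median of -0.04, so no direction of the list as a whole is given. Without white matter replicates 7 and 8, the number that rose was 5. Without spinal cord replicates 4 and 7, 10 rose and none fell, with a median of 0.70.

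Among 22 transcription factors of the oligodendrocyte lineage, 3 rose and 1 fell. That is 18.2% called, near the 17.4% of all genes tested. Beside Hopx and Nkx2-9, Olig1 rose, at 872 ± 371 against 366 ± 205 RPKM (1.26 ± 0.39, adjusted p = 0.0361), a call that ended without any 1 of 8 libraries. Olig2, Sox10 and Myrf, the core of the lineage programme, differed by 0.53 ± 0.36, 0.40 ± 0.34 and 1.05 ± 0.44 and were not called. Without spinal cord replicates 4 and 7, Myrf was called (1.61, adjusted p = 0.0174). Of 20 genes of precursors and newly formed oligodendrocytes, none rose and 1 fell, the receptor phosphatase Ptprz1 (-1.57 ± 0.43, adjusted p = 0.0192, and 0.058 without white matter replicate 6). Calls made up 5.0% of this list.

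In cholesterol synthesis, which supplies the main lipid of myelin, 4 of 21 genes rose and 1 fell, with a median of 0.53. Calls made up 23.8% of this list, against 17.4% of all genes tested. Hmgcs1, which makes the precursor of mevalonate, stood at 544, 289, 515, 303 and 647 RPKM in spinal cord and at 76.8, 152 and 210 RPKM at the lowest, median and highest in white matter, and rose by 1.57 ± 0.31 (adjusted p = 0.00252). The sterol demethylation enzymes Msmo1 and Cyp51 rose by 1.67 ± 0.42 and 1.39 ± 0.32, to 151 ± 65.3 and 147 ± 44.1 RPKM from 49.3 ± 21.6 and 56.4 ± 17.0. In all 3 genes every spinal cord library was above every white matter library. Hmgcs1 was also higher in spinal cord than in cerebellum, which averaged 155 ± 59.1 RPKM (1.59 ± 0.30, adjusted p = 0.000357), and white matter and cortex did not differ detectably (0.32 ± 0.28, adjusted p = 0.547). Nsdhl, which acts late in the pathway, fell by 2.09 ± 0.58 on the log2 scale (adjusted p = 0.0195), a call that ended without white matter replicate 6, spinal cord replicates 4 and 7 or white matter replicates 7 and 8 (adjusted p = 0.0536, 0.0507 and 0.0732). Of 15 genes that regulate or import cholesterol, Npc2, the lysosomal cholesterol carrier, rose by 1.90 ± 0.34 without overlap, and Nr1h3, which encodes the sterol receptor LXRα, rose by 2.06 ± 0.56 (adjusted p = 0.0184, and 0.0661 without spinal cord replicates 4 and 7). Of 31 genes of fatty acid, sphingolipid and galactolipid synthesis, 2 rose and 2 fell. The calls were 13.3% of the regulation and import list and 12.9% of this list, below the 17.4% of all genes tested.

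Of 14 genes of iron transport and storage, 2 rose, both ferritin chains. That is 14.3% called, below the 17.4% of all genes tested. Fth1 stood at 10963, 24472, 11175, 33700 and 12545 RPKM against 4388 to 11498, highest in spinal cord replicates 4 and 7, and rose by 1.28 ± 0.31 (adjusted p = 0.00931). Ftl1 rose by 1.25 ± 0.32 (adjusted p = 0.0134). Without replicates 4 and 7 neither was called (adjusted p = 0.071 and 0.068). The call of Fth1 also ended after quantile normalization (0.61, adjusted p = 0.175), and that of Ftl1 with the trend on coding length removed (0.86, adjusted p = 0.062). The ratio of the heavy to the light chain gene was 18.4 to 31.6 in spinal cord and 19.2 to 31.6 in white matter. Glul, the glutamine synthetase of glia, stood at 4309, 2823, 4391, 2805 and 4440 RPKM against 756 to 2317 and rose by 1.41 ± 0.27 (adjusted p = 0.00203). Kcnj10, the inward rectifier Kir4.1, averaged 1157 ± 433 RPKM against 459 ± 179 and rose by 1.36 ± 0.35 (adjusted p = 0.0134, and 0.055 after quantile normalization). Kcnk2, the potassium leak channel TREK-1, fell from 42.7 ± 17.3 to 2.55 ± 1.58 RPKM (-3.91 ± 0.51, adjusted p = 7.56e-05), and Lingo1, a Nogo receptor partner that restrains myelination, from 76.1 ± 47.3 to 7.93 ± 2.33 RPKM (-3.03 ± 0.44, adjusted p = 0.000202). Kcnk2 averaged 5.10 ± 2.76 RPKM in cerebellum and Lingo1 8.43 ± 2.40.

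The Hox genes, which set position along the body axis, gave the largest fold changes. Of 39 in the table, 17 passed the filter on low values and 16 of these rose. A gene silent in white matter could pass that filter only through the spinal cord, so this count describes the members and is no support. Over all 39, 28 had reads in at least 1 spinal cord library, 21 had none in any white matter library, and 8 had none in any of the 11. Paralogue group 8 dominated. Hoxc8 stood at 199, 526, 199, 269 and 152 RPKM in spinal cord against 0 to 1.34 in white matter (8.21 ± 0.51, adjusted p = 1.0e-07), Hoxd8 at 302, 99.5, 357, 197 and 161 RPKM against 0.0699 to 5.01 (7.76 ± 0.62), and Hoxb8 at 44.7, 135, 76.5, 152 and 91.5 RPKM against 0 to 0.501 (7.22 ± 0.52). Summed over group 8, the level was 405 to 761 RPKM in the spinal cord libraries and at most 5.76 in white matter.

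The other groups were lower. The sum of group 9 was 27.4 to 92.0 RPKM in spinal cord, that of group 10 was 0 to 9.49, and groups 11, 12 and 13, which mark the lumbosacral and tail end, had no reads in any spinal cord library. Group 5 summed to 27.3 to 216 RPKM, group 3 to 9.07 to 45.0 and group 1 to 1.02 to 66.8. Libraries differed within this pattern. Hoxa5 stood at 6.75 RPKM in replicate 3 and at 54.1 to 97.3 in the other 4, Hoxb9 at 1.25 RPKM in replicate 4 and at 14.04 to 66.8 in the others, and Hoxc4 at 2.96 RPKM in replicate 4 and at 15.9 to 26.1 in the others. Where a gene had no read in white matter, the fold is a lower bound set against 3 reads over the group, and it was at least 306-fold for Hoxc6, 209-fold for Hoxb6 and 335-fold for Hoxc5, the last of which had not passed the filter. These bounds pool the reads of all libraries of a group and do not hold for each library. Across the spinal cord libraries Hoxc6 stood at 3.02 to 53.1 RPKM and Hoxc5 at 0.231 to 70.0, both highest in replicate 4, and Hoxb6 at 0.956 to 29.5. With such tested genes at their bounds the median log2 fold change of the 17 was 6.32 instead of 4.44. Cortex and cerebellum averaged 0.205 and 0.044 RPKM for Hoxc8. Neurons of the cord express Hox genes too, and the part of each cell type in these values was not tested. Hox loci also carry antisense transcripts, and whether counting used strand is not given in the sources used here.

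The region upstream of Hoxd8 is shown for the paralogue group with the highest level. It is the 250 bases before the start at chr2:74704365-74704614 on the plus strand of GRCm38.p6, outside the annotated gene. It holds no match on either strand to ACAAAG or to TATAAA, the core of the TATA box, which 12.3% of all stretches hold, and it was 44.4% G and C. The stretch of Hoxb8, of the same group, was searched too and holds 2 matches to TATAAA, so the Hoxd8 stretch does not stand for its group. That of Hoxb8 lies inside the annotated gene and is not printed.
Hoxd8: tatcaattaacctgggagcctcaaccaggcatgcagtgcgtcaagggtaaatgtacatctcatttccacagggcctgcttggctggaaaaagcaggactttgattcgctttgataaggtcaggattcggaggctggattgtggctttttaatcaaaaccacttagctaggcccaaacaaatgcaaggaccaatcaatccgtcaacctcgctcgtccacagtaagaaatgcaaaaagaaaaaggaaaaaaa

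**Figure D3:**
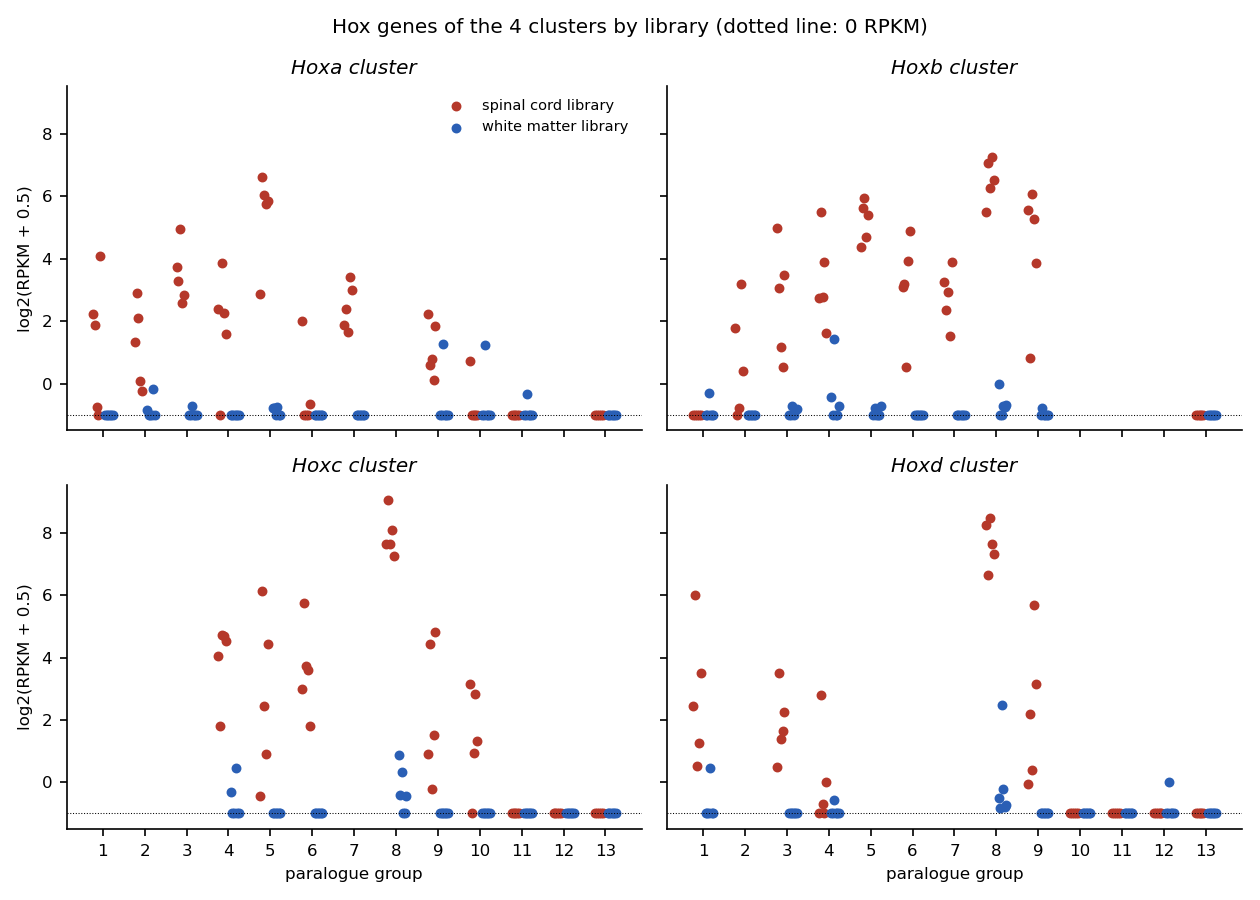
Level of the 39 Hox genes as log2(RPKM + 0.5) against paralogue group, 1 panel for each of the 4 clusters, with 1 point for each of 5 spinal cord (red) and 6 white matter (blue) libraries; the dotted line marks 0 RPKM. The mean of the spinal cord points is highest at group 8 in the b, c and d clusters, and all of them lie on the dotted line at groups 11 to 13, and the highest white matter point is Hoxd8 in replicate 5, at 5.01 RPKM.

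Of 28 forebrain patterning factors in the table, 22 were tested, 18 fell and none rose, with a median of -3.83. The median was -5.34 with a pseudocount of 0.1 and -6.32 with voom on the recovered reads. In every spinal cord library 10 of the 28 had no reads, and such a gene could pass the filter only through white matter, so counts and medians of forebrain lists describe the genes tested and support no direction. Tbr1, a factor of cortical projection neurons, stood at 0.0754, 0.0573, 0.0898, 0 and 0 RPKM in spinal cord and at 27.2, 47.5 and 57.8 RPKM at the lowest, median and highest in white matter (-6.27 ± 0.49, adjusted p = 4.79e-07). Lhx2, a LIM homeodomain factor of cortical progenitors, fell by 5.69 ± 0.58 on the log2 scale. Cortex averaged 61.8 ± 12.3 RPKM of Tbr1, and its difference from white matter was not called (white matter minus cortex -0.54 ± 0.31, adjusted p = 0.317).

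Many of the tested genes of forebrain neurons fell, and those of interneurons went both ways. Of 14 genes of excitatory neurons 11 fell, of 14 striatal genes 9 fell, and none in either list rose. Of 12 genes of forebrain interneurons 6 fell and 3 rose, with a median of -1.83. Ddn, a dendritic protein, averaged 0.508 ± 0.604 RPKM in spinal cord and 224 ± 176 in white matter (-7.63 ± 0.53, adjusted p = 1.68e-07), and Nrgn, a calmodulin-binding protein of spines, 11.5 ± 13.3 and 771 ± 251 (-6.76 ± 0.58). Camk2a, the kinase of excitatory synapses, stood at 19.7, 172, 38.6, 83.0 and 63.9 RPKM against 720 to 3013 (-4.65 ± 0.47). The striatal genes were uneven within white matter. Their summed level was 209 and 283 RPKM in white matter replicates 8 and 7 and 1017 to 3055 RPKM in the other 4, against 159 to 419 in spinal cord. Drd1, the dopamine receptor of striatal projection neurons, stood at 38.3, 33.1, 56.9, 72.2, 0.476 and 6.77 RPKM in replicates 2, 3, 5, 6, 7 and 8 of white matter, and at 0 to 0.144 in spinal cord.

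Many postsynaptic and activity-regulated genes also fell. Of 25 genes of the postsynaptic density 19 fell and none rose, with a median of -1.88. Homer1, a scaffold of metabotropic receptors, stood at 7.56, 10.1, 13.4, 17.4 and 5.56 RPKM in spinal cord against 158 to 266 in white matter (-4.28 ± 0.33, adjusted p = 4.79e-07). Of 18 immediate early genes 12 fell and 1 rose, with a median of -2.42. Egr3 stood at 0.256, 5.65, 1.68, 2.30 and 4.75 RPKM against 89.2 to 190 (-5.63 ± 0.50), Arc at 40.2 ± 6.41 against 214 ± 31.6 (-2.40 ± 0.26), and Egr1 at 19.7 ± 17.4 against 190 ± 64.0 (-3.52 ± 0.45). The exception was Jund, a member of the AP-1 family, which rose from 20.9 ± 7.06 to 135 ± 54.7 RPKM (2.65 ± 0.36, adjusted p = 0.000103). In cortex Egr3 averaged 243 ± 51.8 RPKM and in cerebellum 0.991 ± 0.927.

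Most of the tested genes of cord and motor neurons rose. Of 16 listed genes, 11 were tested, 9 rose, none fell and 2 were not called, with a median of 3.31, and a gene low in white matter could pass the filter only through spinal cord. The summed level of the list was 310 to 789 RPKM in spinal cord and 41.6 to 333 in white matter, and the groups overlapped through white matter replicate 5 and spinal cord replicates 3 and 5. Tac1 is in this list, the sensory ganglion list and the striatal list, and its part in the sums was not tested. White matter replicate 5 also held the highest striatal sum, at 3055 RPKM. Glra1, the adult subunit of the glycine receptor, stood at 32.0, 127, 56.7, 37.6 and 60.2 RPKM in spinal cord against 0 to 1.49 in white matter (6.25 ± 0.57, adjusted p = 2.35e-06), and 3 of 7 genes of glycine transmission rose, with the neuronal transporter Slc6a5 (2.99 ± 0.62) and the glial transporter Slc6a9 (1.45 ± 0.38) beside it. In white matter Slc6a5 was at most 0.170 RPKM, and Glra1 at most 0.283 outside replicate 5. Both passed the filter only through spinal cord, so the glycine count describes the genes tested and is no support. Prph, the intermediate filament peripherin of motor and sensory neurons, rose by 5.31 ± 0.67 and Calca, the precursor of the neuropeptide CGRP, by 4.32 ± 0.82. Of the 7 neurofilament and related genes 4 rose and none fell. Nefh, Nefm and Nefl averaged 216 ± 75.8, 742 ± 226 and 1321 ± 291 RPKM in spinal cord and 17.1 ± 12.1, 113 ± 36.1 and 274 ± 117 in white matter, rises of 3.77 ± 0.41, 2.72 ± 0.29 and 2.35 ± 0.30. Ina, which forebrain neurons use too, differed by 0.62 ± 0.29 and was not called (adjusted p = 0.158). Of 15 genes of sensory ganglion neurons in the table, 4 were tested, 2 rose, Prph and Calca, and none fell, with a median of 2.05. Prph was at most 0.225 RPKM in white matter outside replicate 2, so it too passed the filter only through spinal cord. The count of sensory ganglion genes is no support either. The summed level of the sensory ganglion list was 62.2 to 214 RPKM in spinal cord and 12.03 to 300 in white matter, so the groups overlapped. Trpv1 and Mrgprd had no reads in any of the 11 libraries.

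General neuronal genes showed no common direction. Of 13 pan-neuronal genes 3 rose and 2 fell, with a median of 0.31, and Snap25 differed by 0.16 ± 0.25 (adjusted p = 0.7). Within the release machinery 3 of 27 genes rose and 11 fell, or 7 without white matter replicates 7 and 8. The 3 that rose belong to families with a second member in the list. Vamp1 stood at 1402, 2660, 1167, 1168 and 1526 RPKM in spinal cord against 79.6 to 230 in white matter (3.503 ± 0.30, adjusted p = 1.4e-06), while Vamp2 averaged 916 ± 279 against 1481 ± 386 (-0.71 ± 0.26, adjusted p = 0.0695). Cplx1 rose by 1.82 ± 0.28 and Cplx2 fell by 2.28 ± 0.27. Syt2 rose by 2.86 ± 0.56 and Syt1, its counterpart as the calcium sensor of fast release, fell by 2.87 ± 0.34. The ratio of Vamp1 to Vamp2 was 1.25 to 2.18 in spinal cord and 0.0506 to 0.107 in white matter, that of Cplx1 to Cplx2 3.74 to 7.42 and 0.243 to 0.5257, and that of Syt2 to Syt1 0.538 to 1.61 and 0.00265 to 0.0333. These pairs were chosen after their values were seen, and the ratios are given without a test.

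**Figure D4:**
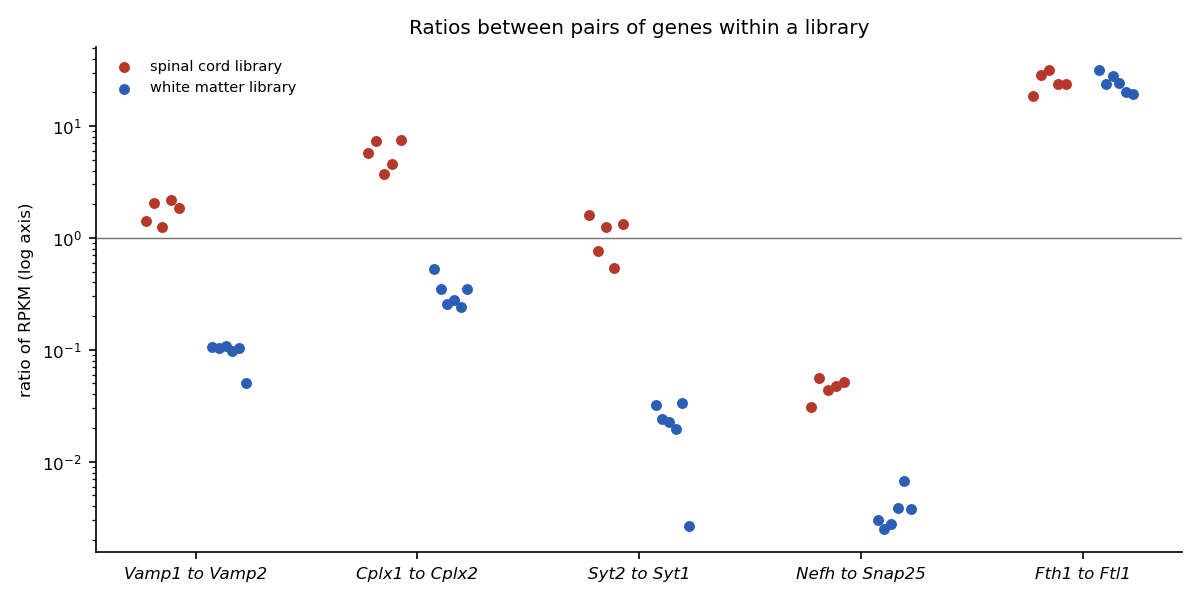
Ratio of the RPKM of 2 genes within a library (log axis) for 5 pairs, with 1 point for each of 5 spinal cord (red) and 6 white matter (blue) libraries. The red and blue points do not overlap for the 3 pairs of release genes or for Nefh to Snap25, and overlap for Fth1 to Ftl1.

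Many genes of ribosomes and of respiration rose. Of 83 cytosolic ribosomal proteins 44 rose and none fell, and of 80 subunits of the respiratory chain and ATP synthase 36 rose and 1, Atp5b, fell, each list with a median of 1.10. Calls made up 53.0% and 46.2% of the lists, against 17.4% of all genes tested. Rpl41, the smallest ribosomal protein, stood at 2940, 4271, 2735, 4283 and 2381 RPKM in spinal cord against 568 to 955 in white matter (2.20 ± 0.23, adjusted p = 1.13e-05). Ndufb3, a subunit of complex I, stood at 253, 193, 231, 317 and 224 RPKM against 30.2 to 60.5 (2.43 ± 0.28, adjusted p = 2.5e-05). The summed level of the ribosomal list was 14593 to 26809 RPKM in spinal cord and 6078 to 10811 in white matter. Rpl10a averaged 47.2 ± 29.4 and 37.2 ± 4.58 RPKM (0.11 ± 0.40, adjusted p = 0.869). The call of Atp5b (adjusted p = 0.0423) ended without any 1 of 9 libraries.

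Coding length moved with these differences. The median log2 fold change was 0.22 in the shortest of 5 equal bins of genes by coding length and -0.49 in the longest. Of the ribosomal list 71 and of the respiratory list 62 genes lay in the shortest bin. Among the other 2399 genes of that bin, 321 rose (13.4%), with a median of 0.12. After the trend with length was removed in each library, 20 ribosomal genes rose with a median of 0.56, and 24 respiratory genes with a median of 0.60. The source of the length trend was not tested.

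**Figure D5:**
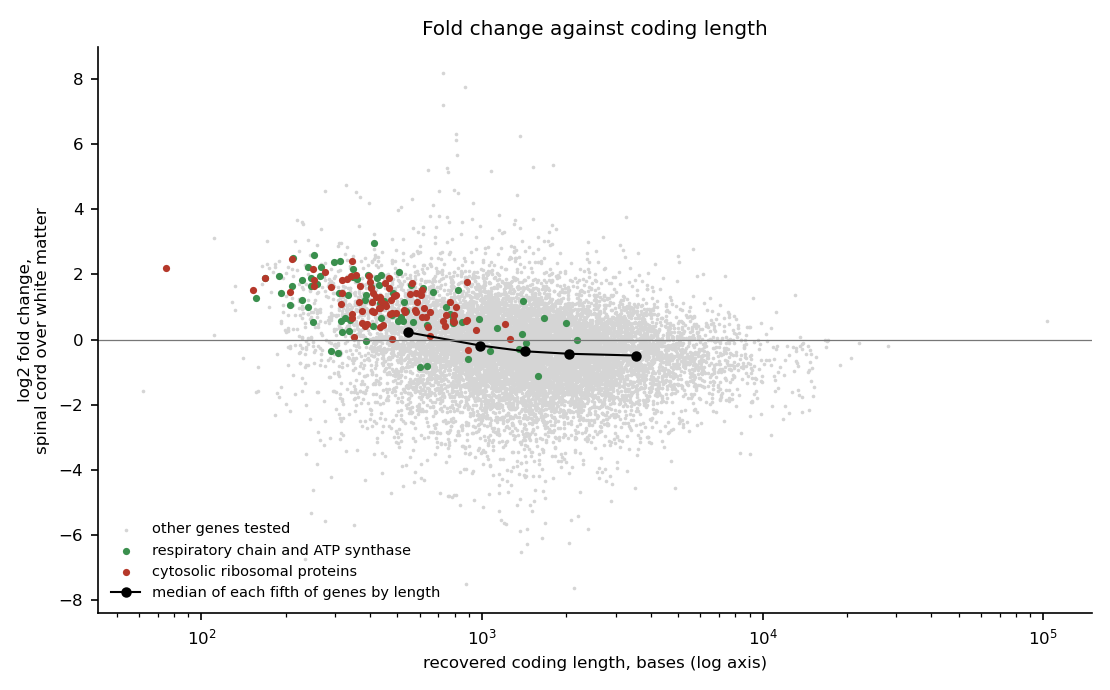
Log2 fold change of spinal cord over white matter against recovered coding length in bases (log axis), 1 point a gene tested, with cytosolic ribosomal proteins in red, respiratory chain and ATP synthase genes in green and other genes in grey; black points joined by a line are the medians of 5 equal bins of genes by length. The line falls from 0.22 to -0.49, and most red and green points lie above 0.

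Markers of other cells were checked as whole lists. None of 15 microglial, 11 endothelial or 4 fibroblast genes tested was called, with medians of -0.98, -1.15 and 0.33. The summed level of the microglial list was 46.2 to 147 RPKM in spinal cord and 68.7 to 157 in white matter. Of 8 pericyte and smooth muscle genes tested, 1 fell and none rose, with a median of -1.54. Of 16 Schwann cell genes in the table, 6 were tested, 2 fell and none rose, with a median of -0.34. Their summed level was 460 to 798 RPKM in spinal cord and 223 to 964 in white matter, and Pmp2 and Dhh had no reads in any of the 11 libraries. Of 14 astrocyte genes 4 rose and 2 fell, and the sum of the list, which holds S100b, was 7689 to 13016 and 2815 to 10036 RPKM. As a share of reads the list leaned the other way, at 0.585 ± 0.107% in spinal cord and 0.788 ± 0.433% in white matter. S100b alone took 0.181 ± 0.0501% and 0.00811 ± 0.00323% of reads. No direction of the astrocyte list as a whole is therefore given. Beside S100b, Gfap stood at 350 ± 158 against 115 ± 94.0 RPKM (1.82 ± 0.43, adjusted p = 0.00773, and 0.052 without white matter replicates 7 and 8) and Atp1b2 rose by 1.70 ± 0.36. Aldoc, an aldolase, rose by 1.25 ± 0.32 (adjusted p = 0.0124), a call that ended without spinal cord replicates 4 and 7 and without white matter replicates 7 and 8. The glutamate transporters Slc1a2 and Slc1a3 fell by 1.60 ± 0.31 and 2.35 ± 0.51 with no overlap, and Aqp4, the water channel of astrocyte endfeet, was not called (0.67 ± 0.35). The part of astrocytes in the level of S100b was not tested. Ependymal genes fell in 4 of 7 tested and choroid plexus genes in 2 of 4, and their summed levels overlapped between the regions. Of 12 genes of cerebellar neurons 4 rose and 1 fell. Their sum was 164 to 453 RPKM in spinal cord replicates 3, 4, 5 and 8, 1096 RPKM in replicate 7 and 179 to 371 in white matter. Replicate 7 also held the highest Car8 and Cbln3, at 276 and 172 RPKM, and without replicates 4 and 7 neither was called (adjusted p = 0.170 and 0.158).

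Among the genes with the largest gain in RPKM outside the lists, Tmsb4x, the actin-binding thymosin beta 4, rose from 2660 ± 627 to 8417 ± 1838 RPKM (1.66 ± 0.23, adjusted p = 0.000113), a call that ended once the length trend was removed (adjusted p = 0.145). Stmn4, a microtubule-binding stathmin, stood at 1842, 1560, 1920, 2153 and 2257 RPKM against 161 to 518 and rose by 2.63 ± 0.27 (adjusted p = 9.57e-06). Tmem88b, a membrane protein, rose by 1.72 ± 0.38 to 5162 ± 2153 RPKM. Lars2, the mitochondrial leucyl-tRNA synthetase, stood at 1323, 2411, 1028, 5217 and 1854 RPKM against 148 to 315 (3.15 ± 0.35, adjusted p = 1.85e-05), highest in replicate 7. Cdr1 rose by 2.38 ± 0.41, but its reads and those of its antisense partner cannot be told apart here. Among the remaining lists, Serpina3n, a protease inhibitor linked to reactive oligodendrocytes, rose from 7.62 ± 5.37 to 35.4 ± 11.02 RPKM (2.55 ± 0.63, adjusted p = 0.0102), and Zbtb20 fell from 85.0 ± 47.3 to 25.1 ± 2.73 RPKM (-1.60 ± 0.36, adjusted p = 0.00558).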

How the data were processed

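The authors deposited 1 table of RPKM values for 20661 genes and 24 TRAP libraries, made with STAR and HTSeq on mm10 per the submitters' processing notes; versions, filters and the strand setting are not given in the sources used here. Whole reads were recovered from the RPKM steps for all 17993 genes above 0, and their total is the depth. Each step was chosen so that all values of its gene are whole within 0.005 reads. That the values are whole is therefore no check of the depth. Lengths so recovered were multiples of 3 in 91.6% of genes, so they are coding lengths. The main test was limma 3.58.1 in R 4.3.3 (trend and robust options) on log2(RPKM + 0.5), fitted to the 11 libraries for genes at 0.5 RPKM or more in at least 5, with Benjamini-Hochberg adjustment over all 12656; it was tested on simulated data. Alternatives were other pseudocounts, filters, scalings and models, voom on the recovered reads, and fits without single libraries and pairs.

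The comparison and the gene lists were chosen with earlier results of these data known. Named genes are the called genes with the largest fold changes or differences in RPKM, up to 4 members of each list by adjusted p, all members of short lists, and Klk6, Mbp, Ptgds, Snap25, Gfap and Rpl10a among others; the text gives part of them, and some genes are not reported here. The named genes outside this rule (among them Gsn, Mag, Tppp3, Plekhb1, Qdpr, Mal, Cldn11, Cnp, Mobp, Mog, Opalin, Olig2, Sox10, Myrf, Drd1, Syt2, Vamp2, Hoxb6, Hoxc5, Cbln3, Aqp4 and Atp5b) were chosen after their values were seen. Upstream sequences are from RefSeq on GRCm38.p6.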

Additional observations from a re-analysis of the deposited data

Results flagged for a closer look

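In 193 sets of values, 1 for each named gene and region, a library lay far from the others of its group by Dixon's ratio on the scale of log2(RPKM + 0.5) in 14, where chance alone flags about 1 in 20 groups. Spinal cord replicate 7, the shallowest library, stood apart in 3 genes: Ddn at 1.58 RPKM against at most 0.289 in the others, Nr1h3 at 6.20 against at most 2.27, and Gjb1 at 56.0 against at least 239. Spinal cord replicate 4 was low in Hoxc4, at 2.96 RPKM against at least 15.9, and in Opalin, at 94.7 against at least 199. Spinal cord replicate 3 was low in Hoxa5, at 6.75 RPKM against at least 54.1.

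In white matter, replicate 5 was high in Hoxd8 at 5.01 RPKM, in the glycine receptor gene Glra1 at 1.49 and in the glycine transporter gene Slc6a5 at 0.170, against at most 0.358, 0.283 and 0.0323 in the other libraries. White matter replicate 2 was high in Prph at 4.32 RPKM and in Hoxb8 at 0.501, against at most 0.225 and 0.117. Hoxb9 was above 0 in white matter replicate 3 alone, at 0.0808 RPKM, which is 1 read. White matter replicate 7 was low in Mbp, at 3463 RPKM against at least 6717, and high in Jph4, at 286 against at most 183.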

How the results depend on the processing

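Of 82 named genes that were called, 59 were called with the same sign under each of the 26 other settings in which they were tested. The filter at 2 RPKM tested 93 of the 97 named genes, and a gene left untested there was not counted as lost. With 1 library left out at a time, 610 to 834 genes were higher and 984 to 1483 lower, 1605 to 2317 in all. List counts then ranged over 16 to 17 for Hox genes, 5 to 5 for MOL2 genes, 6 to 10 for myelin proteins, 3 to 5 for cholesterol synthesis, 8 to 9 for cord and motor neurons, 4 to 4 for neurofilaments, 39 to 50 for ribosomal proteins and 33 to 38 for the respiratory chain among higher genes. Among lower genes they were 18 to 19 for forebrain patterning, 11 to 11 for excitatory neurons, 8 to 10 for striatal neurons, 16 to 21 for the postsynaptic density, 10 to 12 for release machinery and 9 to 12 for immediate early genes. Without white matter replicates 7 and 8 there were 479 higher and 803 lower genes, 1282 in all. Higher were then 5 myelin, 6 cord and motor neuron, 32 ribosomal and 29 respiratory genes. Lower were 7 release, 14 postsynaptic and 9 immediate early genes, and 11 striatal genes, more than in the main fit. The fit without these 2 replicates had fewer libraries. A fit of all 24 libraries gave 1269 higher and 2561 lower genes, 3830 in all, with 7 cholesterol genes higher. Quantile normalization left 5 myelin genes higher, and removing the length trend left 20 ribosomal genes.

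With the replicate number as a block, the 11 libraries gave 665 lower genes and 1270 in all, and all 24 gave 2231 lower and 3349 in all. In the block fit of 11 libraries 5 cord and motor neuron genes were higher, and 14 postsynaptic and 8 immediate early genes lower. Deviations of same-numbered libraries correlated at 0.172, 0.0318, 0.0512 and 0.0594 for numbers 3, 5, 7 and 8. Those of differently numbered libraries ran from -0.113 to 0.109, so number 3 lay above that range and the others within it. The labels do not say whether a number stands for the same animal across regions. The main fit was unpaired, and a pairing was not excluded.

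Of genes that were not called, some changed sign. Under quantile normalization Cldn11, Cnp, Opalin, Ptgds and Snap25 were at -0.1217, -0.3181, -0.0979, -0.0762 and -0.2741, and with the length trend removed Cldn11, Opalin, Ptgds, Rpl10a and Snap25 were at -0.0353, -0.3706, -0.0346, -0.1779 and -0.0678. Rpl10a was at -0.0261 with voom and at -0.0928 without spinal cord replicates 4 and 7. Opalin was at -0.0081 and -0.0421 with the replicate block on 11 and 24 libraries. Leaving out 1 library gave -0.0841 to 0.645 for Cldn11, -0.0434 to 0.4529 for Cnp, -0.072 to 0.5147 for Opalin and -0.1795 to 0.4203 for Rpl10a. The causes were not tested.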
